A study of Caenorhabditis elegans with 2 samples.

Results

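The genes described here encode the stress sensors, the stress transcription factor and the main folding proteins of the endoplasmic reticulum (ER) of Caenorhabditis elegans. They were 10 of 19973 protein-coding genes, namely ire-1, pek-1, atf-6, xbp-1, hsp-3, hsp-4, enpl-1, crt-1, pdi-2 and pdi-3. They were selected from the unfolded protein response and ER folding machinery after their MXL-3 peaks had been seen, so whether a gene was bound and how strongly are given as descriptions without a test. All 10 had a match in the annotation.

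Binding of MXL-3, a helix-loop-helix zipper factor of the Max family, was measured by ChIP-seq in whole L4 larvae, in 2 biological replicates of 1 group. The strain was OP745, in which the transgene wgIs745 carries mxl-3 tagged with TY1, EGFP and 3xFLAG plus a working unc-119 gene, in an unc-119(tm4063) background. The tag is C-terminal, the precipitating antibody was against GFP, and the animals were 48 hours old, of pooled male and female sex, and had been synchronised by bleaching and L1 starvation. Signal from all tissues was pooled in each library, and no stressed animals or other stages were among the samples. All animals came from 1 transgenic strain, so a feature of that line cannot be told apart from a feature of the factor.

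The unfolded protein response adjusts the folding capacity of the ER to its load. In it, the sensor kinase and nuclease IRE-1 splices the xbp-1 mRNA, the kinase PEK-1 phosphorylates a translation initiation factor, and ATF-6 is a membrane-bound transcription factor. Their targets include the BiP chaperones and the protein disulfide isomerases, and in worms hsp-4 is the usual reporter of the pathway because ER stress raises its transcription through ire-1 and xbp-1. MXL-3 is known in worms for repressing lysosomal lipase genes in fed animals, and Max-family factors bind the E-box CACGTG.

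Stretches of promoter sequence from this gene group are printed here because they hold, or lack, the motifs on which the descriptions turn. The first 4 run as far as 100 bp to either side of a MXL-3 summit, stopping before the first base of the gene, and the last 2 are the 200 bp before the 5'-most annotated start of the 2 BiP genes. All were read from the RefSeq WBcel235 sequence on the strand of the gene, 5' to 3'. Capitals mark CACGTG, the core TGACGTG of the unfolded protein response element, the ER stress element box CCACG and the GA repeat GAGAGAGA, each searched on both strands. CCACG can overlap CACGTG and TGACGTG, and such overlaps print as 1 block of capitals. The regions are chrIV:11119113-11119297 on the plus strand for enpl-1, chrX:11414888-11415055 on the minus strand for pek-1, chrV:6100736-6100936 on the minus strand for crt-1, chrIII:4193707-4193808 on the plus strand for xbp-1, chrX:6092125-6092324 on the minus strand for hsp-3 and chrII:7352646-7352845 on the minus strand for hsp-4.
enpl-1: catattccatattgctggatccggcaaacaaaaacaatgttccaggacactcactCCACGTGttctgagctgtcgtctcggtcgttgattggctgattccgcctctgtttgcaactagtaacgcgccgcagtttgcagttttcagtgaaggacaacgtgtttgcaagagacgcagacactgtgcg
pek-1: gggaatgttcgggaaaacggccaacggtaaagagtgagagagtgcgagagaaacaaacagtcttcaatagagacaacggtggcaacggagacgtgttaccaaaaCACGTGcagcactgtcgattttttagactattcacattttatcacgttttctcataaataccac
crt-1: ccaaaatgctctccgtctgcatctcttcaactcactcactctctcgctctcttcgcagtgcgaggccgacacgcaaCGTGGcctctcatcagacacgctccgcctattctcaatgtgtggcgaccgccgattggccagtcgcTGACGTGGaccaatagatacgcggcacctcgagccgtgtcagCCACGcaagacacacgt
xbp-1: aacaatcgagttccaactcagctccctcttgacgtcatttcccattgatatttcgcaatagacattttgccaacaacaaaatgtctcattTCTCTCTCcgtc
hsp-3: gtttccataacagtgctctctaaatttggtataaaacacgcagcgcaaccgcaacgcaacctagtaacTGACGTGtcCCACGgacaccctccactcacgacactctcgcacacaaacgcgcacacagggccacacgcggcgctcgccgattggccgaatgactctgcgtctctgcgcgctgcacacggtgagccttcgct
hsp-4: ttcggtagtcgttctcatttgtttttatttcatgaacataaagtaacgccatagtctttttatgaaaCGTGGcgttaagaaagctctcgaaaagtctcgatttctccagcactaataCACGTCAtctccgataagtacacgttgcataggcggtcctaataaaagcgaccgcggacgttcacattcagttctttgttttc

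MXL-3 lay at 9 of the 10 genes, and the exception was hsp-4. The authors' filter based on agreement between the replicates, the irreproducible discovery rate (IDR), left 3935 peaks. A gene counted as bound where one of these had its summit between 2000 bp upstream of any annotated start and the gene end. Of all protein-coding genes 17.1% were bound by that rule, and 19.4% of the 12135 genes with a window as long as those of the group, from 3550 to 14668 bp. In the narrower promoter window, from 1000 bp upstream to 200 bp downstream of any start, the count was again 9 of 10, against 11.3% of all protein-coding genes. The 9 genes had 10 IDR summits between them, since ire-1 had 2, as 2.81% of all genes had. Because the genes were chosen with these peaks known, the counts describe the group and do not test it.

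Among the IDR peaks of the group, the strongest stood at the folding protein genes enpl-1, pdi-3, crt-1 and pdi-2 and the weakest at ire-1. The xbp-1 peak was stronger than that of hsp-3, and hsp-4 had no IDR peak. The signal value, the authors' measure of peak height on a scale not given in the sources used here, ran from 91.1 to 1445 in the IDR list, with a median of 138. Promoter summits of rank 200 or better, a limit set after the values were seen, were found at 6 of the 10 genes, against 0.736% of all protein-coding genes. These were enpl-1, pdi-3, crt-1, pdi-2, xbp-1 and hsp-3, while all 3 sensors ranked lower. Of the group, 4 genes lie on X (pek-1, atf-6, hsp-3 and pdi-2), which holds 13.7% of protein-coding genes.

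**Figure D1:**
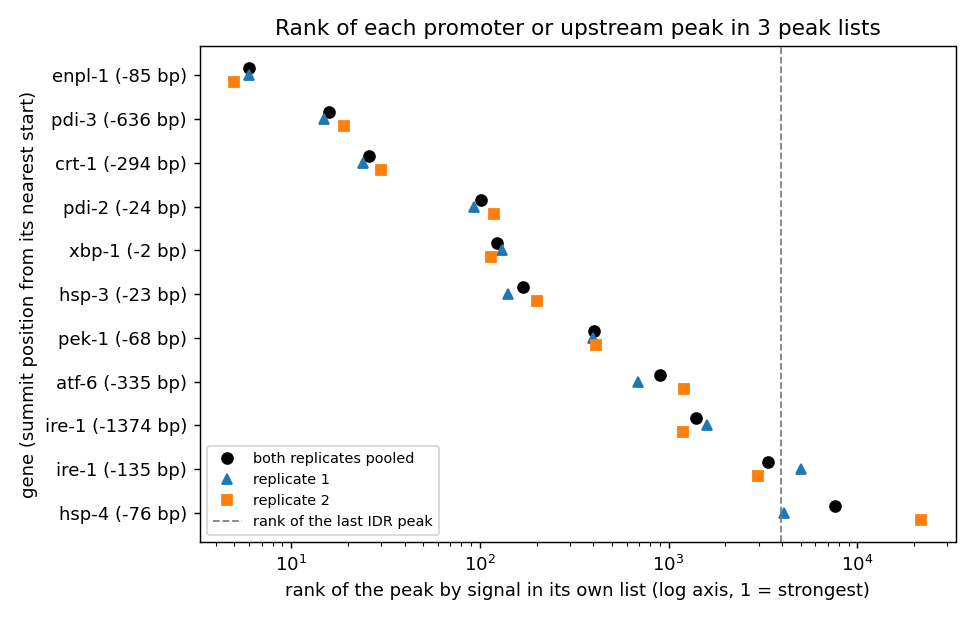
Rank of each peak by signal in the pooled list, replicate 1 and replicate 2 (log axis, 1 is strongest), for the 10 IDR summits of the gene group and the hsp-4 promoter summit. The dashed line is the last IDR rank, 3935. The 6 strongest rows stay at rank 200 or better in all 3 lists, while the ire-1 summit at -135 bp straddles the line and the hsp-4 summit lies beyond it in each list.

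Among the sensors, pek-1, which encodes the eIF2alpha kinase, had the strongest peak. Its summit on X at 11414955, intergenic and 68 bp upstream of the start (-68 bp), had a signal of 137 and rank 398 in replicate 1 and a signal of 175 and rank 412 in replicate 2. In the IDR list the signal was 310.0 and the rank 402. The replicates placed the peak at the same rank to within 14 positions and the summit within 1 bp. The IDR peak was 135 bp wide, against a median of 376 bp over the IDR list, but its width differed between the replicates, at 97 bp in replicate 1 and 370 bp in replicate 2.

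The atf-6 peak was lower and less even. It had its summit on X at 12480613, intergenic at -335 bp, with a signal of 106 and rank 687 in replicate 1 and a signal of 105 and rank 1205 in replicate 2. Its IDR signal was 211 and its rank 906. The rank in replicate 2 was well below that in replicate 1, though both were far inside the 3935 highest peaks of their lists.

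The ire-1 gene, whose product is the kinase and nuclease that splices xbp-1 mRNA, carried 2 modest summits on II. The upstream summit at 8126284, intergenic at -1374 bp, had a signal of 69.0 and rank 1596 in replicate 1 and 105 and rank 1192 in replicate 2, and an IDR signal of 168. The summit near the start, at 8125045 and -135 bp, had 36.4 and rank 5010 in replicate 1 and 64.0 and rank 2971 in replicate 2, with an IDR signal of 101 and rank 3347. The promoter summit therefore lay outside the 3935 highest peaks of replicate 1 and inside those of replicate 2, and the upstream summit lay inside both. The start of ire-1 was the nearest protein-coding start to both summits.

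At xbp-1, the gene of the transcription factor that IRE-1 activates, the summit sat almost on the annotated start. It lay on III at 4193807, at -2 bp, with a signal of 208 and rank 131 in replicate 1 and 283 and rank 115 in replicate 2. The IDR signal was 485 and the rank 123. Annotated starts of trans-spliced worm genes can mark the splice acceptor rather than the first transcribed base, so short distances are relative to the annotation.

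The 2 BiP genes differed. Both encode Hsp70 chaperones of the ER lumen. At hsp-3 the summit was intergenic on X at 6092147, -23 bp from the 5'-most start, with a signal of 202 and rank 142 in replicate 1 and 231 and rank 200 in replicate 2. Its IDR signal was 426 and its rank 170. No IDR summit lay in the hsp-4 window on II, and 7 summits of the pooled list did, all weak.

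The highest pooled summit at hsp-4 was in the promoter at 7352721, at -76 bp. Its pooled signal was 61.8, rank 7575. Within 100 bp of it, replicate 1 had a summit of signal 40.6 and rank 4092, just outside its 3935 highest peaks, and replicate 2 had one of signal 22.2 and rank 21770. The replicates thus placed this peak far apart. Replicate 2 had its highest hsp-4 peak elsewhere, in coding sequence at 7352227, with a signal of 68.75 and rank 2611, and replicate 1 had no summit within 100 bp of it. Reads from the paired genes are not separated in the files, and whether that bears on this coding peak was not tested. The longest stretch of the peak identical to the hsp-3 gene was 20 bp, against 25 bp for any part of hsp-4.

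**Figure D2:**
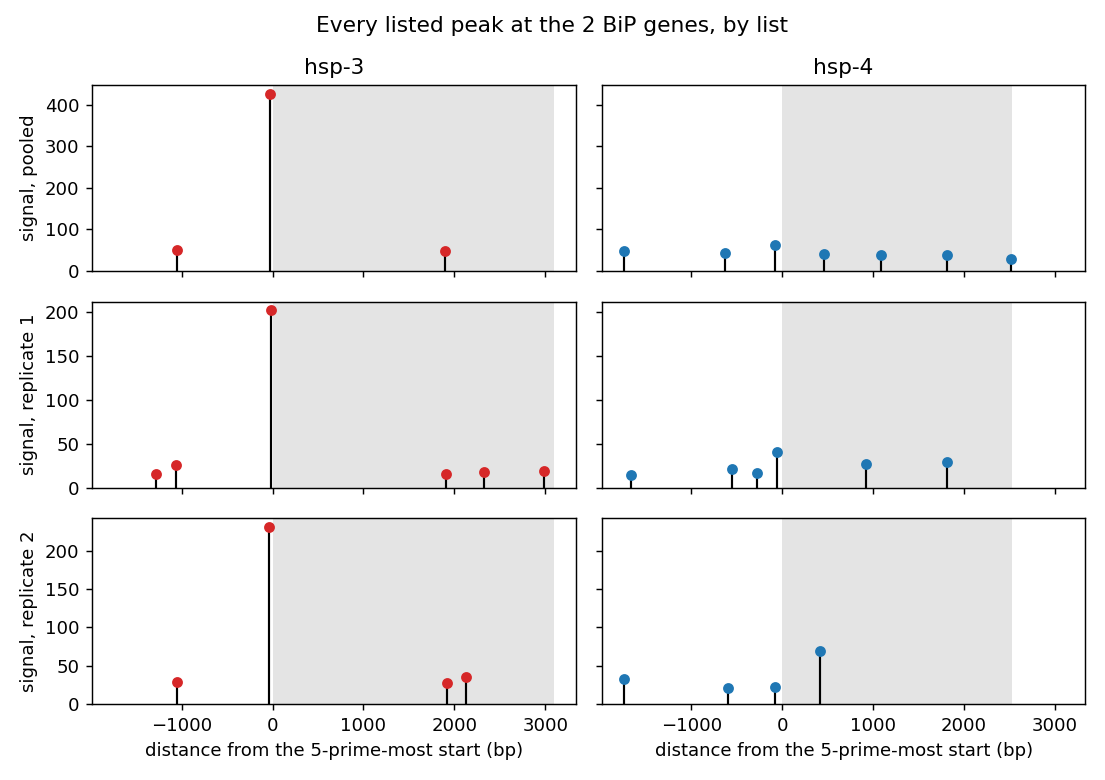
Signal of every listed peak (vertical axis, authors' units) against distance from the 5'-most start in bp for hsp-3 (left) and hsp-4 (right), in the pooled list and each replicate, with the gene shaded. A single tall peak stands at the hsp-3 start in all 3 lists, reaching 426 in the pooled list, and the pooled hsp-4 peaks do not exceed 61.8.

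The endoplasmin gene enpl-1, which encodes the Hsp90 chaperone of the ER, had the strongest peak of the group. The summit on IV at 11119213, intergenic at -85 bp, had a signal of 538 and rank 6 in replicate 1 and 703 and rank 5 in replicate 2. The IDR signal was 1236, rank 6 of 3935. The same summit lay at -326 bp from the divergent gene imp-2, an intramembrane protease gene, and enpl-1 had the nearer start.

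The calreticulin gene crt-1, whose product is a calcium-binding lectin chaperone, ranked behind enpl-1 and pdi-3. Its summit on V at 6100836, -294 bp, had a signal of 391 and rank 24 in replicate 1 and 470 and rank 30 in replicate 2, and an IDR signal of 858 with rank 26. The position falls in an exon annotated as the noncoding RNA Y38A10A.8. No other protein-coding gene had that summit in its promoter window.

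The pdi-2 gene encodes a protein disulfide isomerase that also serves as a subunit of collagen prolyl 4-hydroxylase in worms. Its summit on X at 4524131, -24 bp, had a signal of 239 and rank 93 in replicate 1 and 281 and rank 119 in replicate 2, with an IDR signal of 517 and rank 102. It lay in an exon of the noncoding RNA gene C07A12.19. A further pdi-2 summit at -1712 bp missed the IDR list narrowly, with a pooled signal of 86.9 and rank 4251, where the last IDR peak had 91.1. The ire-1 promoter summit, at 101, was the member just inside that limit.

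**Figure D3:**
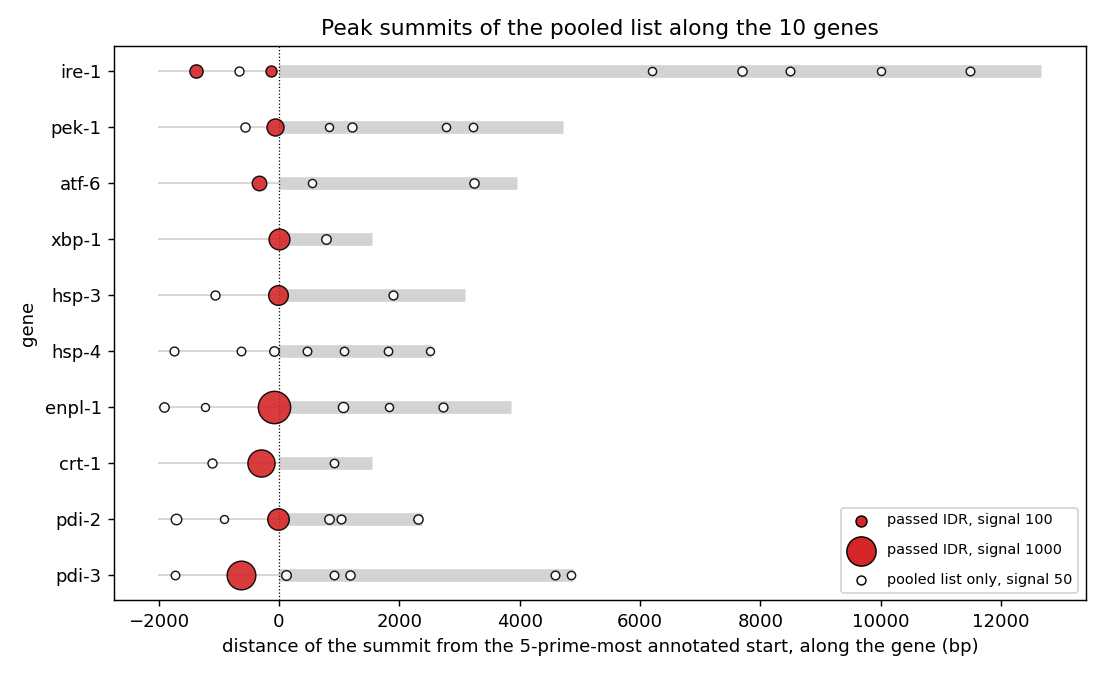
Summits of the pooled list along the 10 genes, by distance in bp from the 5'-most annotated start, with the gene body in grey and circle area rising with signal. Filled circles passed the IDR threshold and open circles did not. The 10 filled circles all lie upstream of the start, and the 41 open circles are spread over upstream sequence and gene bodies.

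Chromosome I holds pdi-3, another disulfide isomerase gene, and its summit was the farthest from a start among the promoter peaks of the group. It lay at 7021433, -636 bp, with a signal of 418 and rank 15 in replicate 1 and 526 and rank 19 in replicate 2, and an IDR signal of 960.0 with rank 16. The divergent ubiquilin gene ubql-1 had the nearer start, at -539 bp, and the position falls in exons of noncoding RNA genes. When a peak was given to the nearest start alone, pdi-3 was no longer counted.

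The replicates placed the IDR peaks of the group in the same positions. Each of the 10 had a summit within 100 bp in both replicate lists, as 96.4% of all IDR peaks did, and each was still matched within 50 bp. In 9 of the 10 the matched peaks were among the 3935 highest of both replicates, against 71.1% of all IDR peaks, the exception being the ire-1 summit at -135 bp. The median distance between the 2 replicate summits was 16.5 bp, against 20 bp over all 3795 matched IDR peaks and 11 bp over those of the strongest 200. The median ratio of the larger to the smaller replicate rank was 1.27, against 1.47 over all matched peaks. The 71.1% and the 1.47 are over peaks of any strength, whereas 6 of the 10 genes had a promoter summit of rank 200 or better. The IDR filter takes agreement between replicates into account, so these matches are not independent of being listed. Each of the 10 peaks had the same signal and rank in the IDR list as in the pooled list. Being listed therefore also reflects pooled height and is not a verdict on the agreement of each single peak.

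The Max-family E-box marked a minority of these peaks. CACGTG lay within 100 bp of 3 of the 10 summits, those of pek-1, enpl-1 and pdi-3, against 15.9% of all IDR peaks and 36% of the strongest 200. Its centre was 6.5 bp from the summit at pek-1, 41.5 bp at enpl-1 and 48.5 bp at pdi-3. The hexamer occurred in the promoter window of no other gene of the group, and in 21.5% of all protein-coding promoters. Of E-boxes in general (CANNTG, which includes CACGTG), 4 of the 10 summit windows held any, against 67.2% of IDR peaks, and atf-6, xbp-1, hsp-3, crt-1, pdi-2 and the upstream ire-1 summit held none.

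The ER stress element box CCACG lay at the IDR summits of xbp-1 and of the folding protein genes that had one. No IDR summit of the 3 sensors held it. That split depends on the summit call, since the replicate 2 summit of the upstream ire-1 peak, at 8126326, had CCACG within 100 bp. The weak pooled hsp-4 summit at 7352721 also held it. It was within 100 bp of 6 of the 10 summits, against 30.5% of all IDR peaks. The 6 were those of xbp-1, hsp-3, enpl-1, crt-1, pdi-2 and pdi-3, which are also the 6 of rank 200 or better, and among the strongest 200 IDR peaks 52.5% held it. At enpl-1 and pdi-3 CCACG overlaps the CACGTG, and 1 of the 3 copies at crt-1 overlaps TGACGTG. The xbp-1 copy, both pdi-2 copies and the hsp-3 copy at 6092088 lay after the 5'-most annotated start. The printed xbp-1 stretch stops before the gene and so shows no CCACG. In the wider promoter window CCACG is common, at 63.4% of all protein-coding genes. The windows of the group held a median of 51.2% G or C, from 40.8% at pek-1 to 63.2% at hsp-3, against 44.8% for all IDR peaks, and the part of base composition in these shares was not tested.

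A complete ER stress element, CCAAT and CCACG with 9 bases between them, was present at pdi-2 alone in the group and within 100 bp of 2 of the 3935 IDR summits. It lies at chrX:4524151-4524169 on the plus strand, beginning at -4 bp from the annotated start, and is printed with that box in capitals.
pdi-2: ccaatcgacgcgttCCACG

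The core TGACGTG, to which XBP-1 and ATF6 are known to bind in mammals, was within 100 bp of the crt-1 summit and of no other IDR summit of the group, against 3.25% of all IDR peaks. At crt-1 it was followed by G, giving TGACGTGG, a longer form searched after the sequences had been seen, which 1.04% of IDR peaks held. In the wider promoter window the core occurred at 3 of the 10 genes, crt-1, hsp-3 and hsp-4, and at 11.4% of all protein-coding genes. The hsp-4 copy was centred 4 bp from the weak pooled summit there. The hsp-3 copy, centred at -129 bp, lay just beyond 100 bp from the strong hsp-3 IDR summit at -23 bp. It was within 100 bp of the replicate 2 summit of that peak, at 6092166, so its exclusion depends on the summit call. A BiP promoter with a strong MXL-3 peak and a BiP promoter without an IDR peak both carried the core, and neither had CACGTG. At xbp-1 the summit window held a GA repeat, 6.5 bp from the summit, as did 12.4% of IDR peaks. The ATF4 element TGATGNAA was found at the upstream ire-1 summit, and at 4.88% of IDR peaks. The replicate 2 summit of that ire-1 peak, at 8126326, did not have it within 100 bp.

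**Figure D4:**
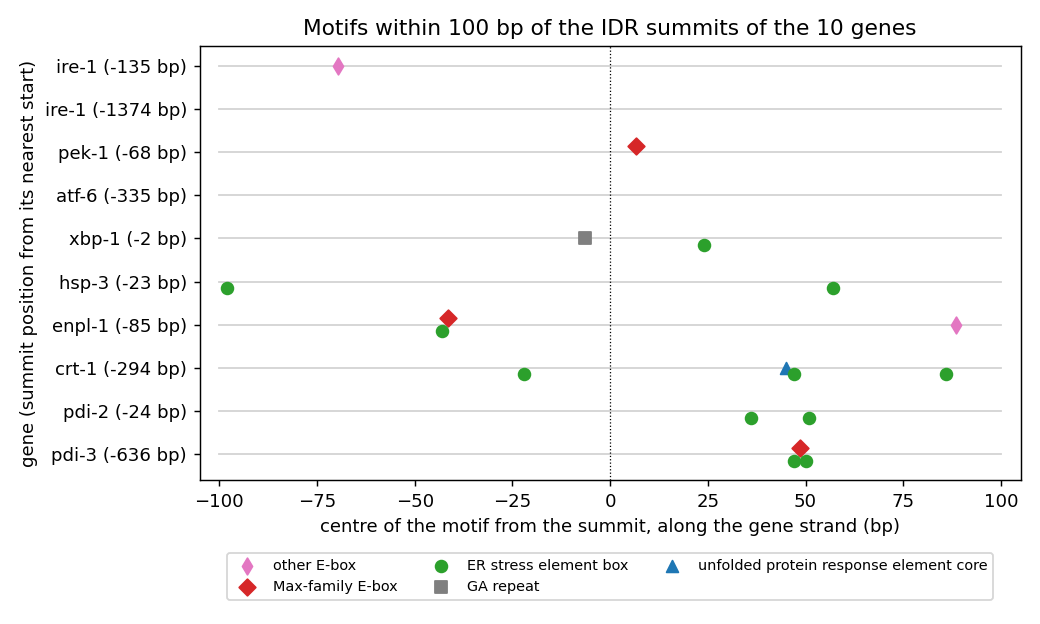
Positions of motif centres within 100 bp of the 10 IDR summits, in bp along the gene strand. Each row is a summit. Max-family E-boxes appear in 3 rows, ER stress element boxes (CCACG) in 6 rows from xbp-1 to pdi-3, and the atf-6 row and the upstream ire-1 row hold none of the motifs drawn (the ATF4 element is not drawn).

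Beyond the 10 genes, MXL-3 promoter peaks were found in 5 lists of the secretory pathway and 1 list of other stress regulators. All lists were drawn up with earlier results of these data known. Of 84 listed names 71 matched a protein-coding gene, and 31 of these (43.7%) had an IDR summit in the promoter window, beside the 11.3% of all protein-coding genes. Intervals below are exact Clopper-Pearson 95% intervals over genes and cover counting error only. The counts are descriptions and were not tested. Counts and signals in these lists are for the promoter window, and the wider gene window is named where it adds genes. Of all protein-coding genes 17.1% had a summit in the gene window, a share not matched to the window lengths of these lists.

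Other ER folding genes had a promoter summit at 11 of 17 (64.7%, 38.3 to 85.8%). Their strongest promoter peaks were those of the disulfide isomerase genes pdi-1 (signal 672) and pdi-6 (513), the glycoprotein glucosyltransferase gene uggt-1 (419.9) and the DnaJ gene dnj-20 (382). The calnexin gene cnx-1, the lectin partner of crt-1, had a weaker summit at -220 bp with a signal of 131 and rank 2169.

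Translocation genes, which bring nascent proteins into the ER, had a promoter summit at 7 of 14 (50%, 23 to 77%), and 8 of 14 (57.1%) had one in the gene window. The strongest in the promoter window was trap-2 of the translocon-associated complex, with a signal of 929, followed by trap-3 and the translocon subunit gene sec-61.B, which shared a summit of 569, and sec-61.G with 492. The gene that the wider window added, the signal peptidase subunit gene spcs-3, had a summit of 603 at -1044 bp, above that of trap-3 and sec-61.B. The oligosaccharyltransferase list had a promoter summit at 1 of 5 (20%, 0.505 to 71.6%), the subunit gene dad-1, with 263.

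Genes of ER-associated degradation had a promoter summit at 5 of 17 (29.4%, 10.3 to 56%). They were led by the segregase gene cdc-48.1 (457), the ubiquitin-conjugating enzyme gene ubc-6 (249), the derlin gene cup-2 (195) and ubc-7 (139.9). COPII coat genes, which carry proteins out of the ER, had a promoter summit at 4 of 9 (44.4%, 13.7 to 78.8%), with the GTPase gene sar-1 (324), sec-12 (243), sec-23 (228) and sec-24.1 (109). In the gene window 6 of 9 (66.7%) had one, the further genes being npp-20 (158 at -1663 bp) and sec-24.2 (135 at -1126 bp).

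Other stress regulators had a promoter summit at 3 of 9 (33.3%, 7.49 to 70.1%). In the gene window 6 of 9 (66.7%) had a summit, beside 17.1% of all protein-coding genes. Those with a promoter summit were the mitochondrial stress factor gene atfs-1 (209), atf-4 (164), whose mammalian orthologue acts downstream of PERK, and skn-1 (133). The heat shock factor gene hsf-1, daf-16 and gcn-1 had IDR summits in the gene window but not in the promoter window, the strongest with a signal of 619 inside gcn-1. The RNA ligase gene rtcb-1, whose product joins the xbp-1 pieces after IRE-1 cleavage, had none in either window. Besides trap-3 and sec-61.B, the named promoter summits that also lay in the promoter window of another gene were those of pdi-1 (C14B1.2), cup-2 (tag-353), ubc-6 (aka-1), sec-61.G (F32D8.13), trap-2 (ile-2), dad-1 (tre-1), sec-23 (dcs-1) and atf-4 (an unnamed gene).

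**Figure D5:**
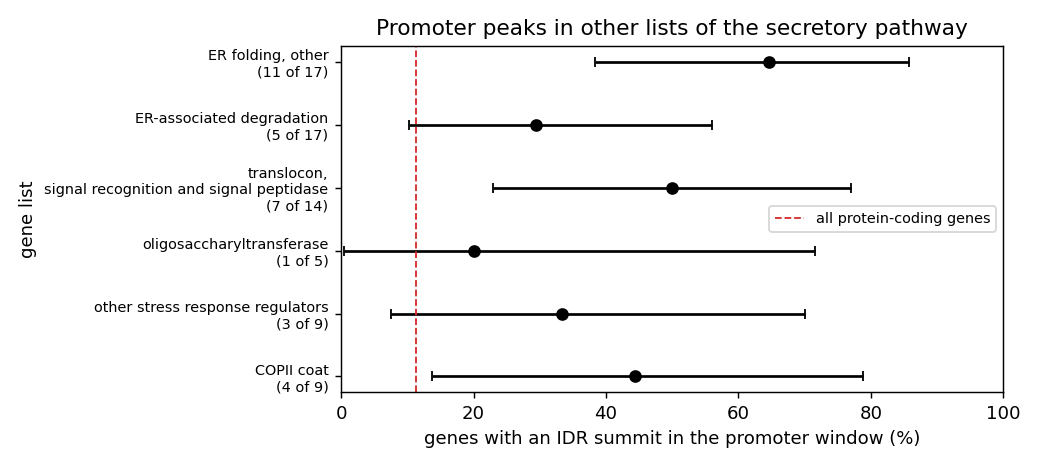
Percent of genes in each list with an IDR summit in the promoter window, with exact 95% intervals and counts beside the names. The dashed line is the 11.3% of all protein-coding genes. The point of every list lies to the right of the line. The lists were drawn up with earlier results of these data known, so the intervals are no test against it.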

How the data were processed

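Binding of tagged MXL-3 was measured in 2 replicates of 1 group. Per the listings deposited with each replicate, the authors' peak lists on assembly ce11 came from the alignments of each replicate and a control, and of both replicates together (30000 peaks each), and the IDR list of 3935 peaks from the pooled list. The sources used here do not name the aligner or peak caller. The deposited signal value and the deposited −log10 q-value were used to rank peaks within a list (the latter for ties). Read depth is unknown, so the error of a signal value could not be estimated.

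Peaks were read on WBcel235, which carries ce11 coordinates; all peaks lay within its chromosomes. Gene models came from Ensembl release 115, with summits, from the deposited offsets, counted from 1. Windows, motif distances and matching distances are given beside each result. A replicate left out means the 3935 highest peaks of the other one.

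The 10 genes and all lists were chosen with earlier results of these data known, and CCAAT, TGACGTCA and TGACGTGG were searched after the printed sequences had been seen. All 10 genes were named, with up to 4 genes of each list by promoter signal, genes sharing a summit, and cnx-1, spcs-3, npp-20, sec-24.2, gcn-1, hsf-1, daf-16 and rtcb-1, which were added after their values were seen. Of the list names 13 matched no gene symbol. Window and motif searches were checked on planted positions. Tables were handled in pandas 2.3.3 and numpy 2.4.6 under Python 3.11.15, intervals came from scipy 1.17.1 and plots from matplotlib 3.10.9. No significance test was made.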

Additional observations from a re-analysis of the deposited data

How the results depend on the processing

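Of 43 alternative values for the counts given, 42 stayed within 1.5 times the main count. The exception was the list of other ER folding genes, which fell from 11 to 7 genes with a promoter summit in the stronger part of the IDR list (1967 peaks), an alternative that holds fewer peaks. Settings wider than the main one, such as 200 bp for CACGTG or for matching, could not lower a count. A drop from 3 to 2 still fell within the limit, so the tally is no measure of robustness. Genes of the group with a summit in the gene window numbered 9 to 10 without a replicate, and in the promoter window 8 to 10. Of all protein-coding genes, the gene window counted 17.1% without replicate 1 and 16.6% without replicate 2, and the promoter window 11.4% and 10.6%. In the stronger part of the IDR list the shares were 9.23% and 5.99%. For the other settings below no share over all genes or peaks is given here. Without replicate 1 hsp-4 was counted in both windows, through its coding peak, and without replicate 2, or in the stronger part of the IDR list, the ire-1 promoter summit was lost. With 500 bp upstream to 100 bp downstream, or the nearest start, 8 were counted, without pdi-3. CACGTG was found at 2 genes within 50 bp of the summit, where pdi-3 dropped out, and at 3 under every other setting tried. All 10 IDR summits stayed matched at 50 and 200 bp. Signal values carry no read counts, and whether depth bears on the weak hsp-4 peak was not tested. No paired analysis was possible because the study has 1 group.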

Other observations

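CCAAT boxes, searched on both strands after the printed sequences had been seen, lay within 100 bp of 5 of the 10 IDR summits of the group. These were the summits of hsp-3, enpl-1, crt-1, pdi-2 and pdi-3, and no IDR summit of the sensors or xbp-1 held the box. The replicate 2 summit of the atf-6 peak, at 12480634, did have CCAAT within 100 bp, so its absence there depends on the summit call. All IDR peaks held CCAAT at 29.4%, the strongest 200 at 31.5%, and windows of 201 bp ending at an annotated start at 32.6%. At xbp-1 the ATF and CREB site TGACGTCA lay 67.5 bp from the summit, and 1.42% of IDR peaks held it.

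Of the 10 IDR peaks of the group 7 were narrower than the median IDR width of 376 bp, as were 14.5% of all IDR peaks and 90% of the strongest 200.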
